A study of Mus musculus with 3 samples.

Results

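Members of the TNF death receptor and necroptosis pathway were followed by level through the cell types of 2 single-cell RNA-seq libraries of mouse liver. They were the 10 genes Tnf, Tnfsf10, Tnfrsf1a, Fas, Tnfrsf1b, Ripk1, Casp8, Ripk3, Mlkl and Cflar, taken by symbol from the gene columns of both tables, and all 10 were present among 21550 columns of one table and 22517 of the other. The study asked how resident liver macrophages (Kupffer cells, KCs) fare in diet-induced fatty liver and what the chitinase-like protein Chi3l1 (gene Chil1) does to their survival. Cells were captured with the BD Rhapsody system, which gives each RNA molecule a unique molecular identifier (UMI), so that a count is a number of molecules. The first table is here called the WT library. The study's methods describe wild-type C57BL/6J mice on normal chow, whereas the table's header names a library APAP0h and the GEO sample that remains for it is titled MCD, so its diet was not settled by the sources used here. The study's filters left 23346 cells in this table. That is close to the number of cells retained, per the study, from livers on normal chow, whereas the HFHC pool kept more cells than both HFHC genotypes of the study together. The second table, here called the HFHC pool, mixes cells of wild-type and Chil1-/- mice, both kept for several months on a high-fat, high-cholesterol (HFHC) diet, and no column tells the genotypes apart. No effect of Chil1 can therefore be read from it, and library, diet, capture and genotype cannot be told apart in any comparison of the 2 libraries.

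TNF and the TNF-related ligand TRAIL (Tnfsf10) bind receptors of one family. The receptors TNFR1 (Tnfrsf1a) and Fas carry a death domain inside the cell, while TNFR2 (Tnfrsf1b) has none. Engaged TNFR1 first assembles a signalling complex around the kinase RIPK1 that drives NF-kB survival genes. If that complex fails, RIPK1 can pass into a second complex in which caspase-8 starts apoptosis, or, where caspase-8 is blocked, RIPK1 engages RIPK3, which phosphorylates MLKL, the protein that ruptures the plasma membrane in necroptosis. c-FLIP (Cflar) is a catalytically inactive relative of caspase-8 that restrains death: paired with c-FLIP, caspase-8 does not complete apoptosis yet still cleaves RIPK1 and RIPK3. Kupffer cells are a well-known source of TNF in liver, and hepatocytes are known for their sensitivity to Fas. Ripk3 and Mlkl are called drivers below, Cflar a restrainer, and Ripk1 and Casp8 are counted on neither side because they act both ways.

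The WT library held 30734 cells with 53720863 UMIs and the HFHC pool 21601 cells with 71981673 UMIs, of which 23346 and 19625 cells passed the filters. In all, 756 cell barcodes occurred in both libraries. Cells were clustered and clusters were named from markers, so every cell type is meant as a class that resembles it: KC-like for KC, and so on. The 13 types with at least 50 cells in each library are compared, among them 2763 and 384 KCs, 92 and 123 C1q macrophages, 335 and 512 classical monocytes, 101 and 75 non-classical monocytes and 3145 and 339 neutrophils. Throughout, the first of a pair of values belongs to the WT library and the second to the HFHC pool. Although the study describes non-parenchymal cells, hepatocyte-like cells were the most numerous class, with 3818 and 8322 cells. Depth per cell differed between libraries: the median was 4544 and 9750 UMIs in KCs and 1009 and 2121 UMIs in neutrophils. A filter at 4000 genes per cell, taken from the study's methods, removed 814 cells of the HFHC pool and 68 of the WT library, and the KCs among them are described below. Another 4160 and 4461 cells stayed unnamed. They include 3 clusters nearest to KCs, each with more than 50% Scrublet doublet calls, of 362 and 126, 91 and 16, and 95 and 4 cells.

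There was 1 library per condition and no replicate, so no test was run and no difference below has a p-value. A level is the number of UMIs of a gene summed over the cells of a type in one library, scaled to counts per 1e+06 UMIs of that type (CPM). Brackets hold 95% intervals from the exact Poisson distribution. They allow for counting error alone and say nothing about the spread between mice. Levels are compared between cell types within a gene, never between genes. The plot of levels by cell type gives all 10 genes in all 13 types.

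**Figure D1:**
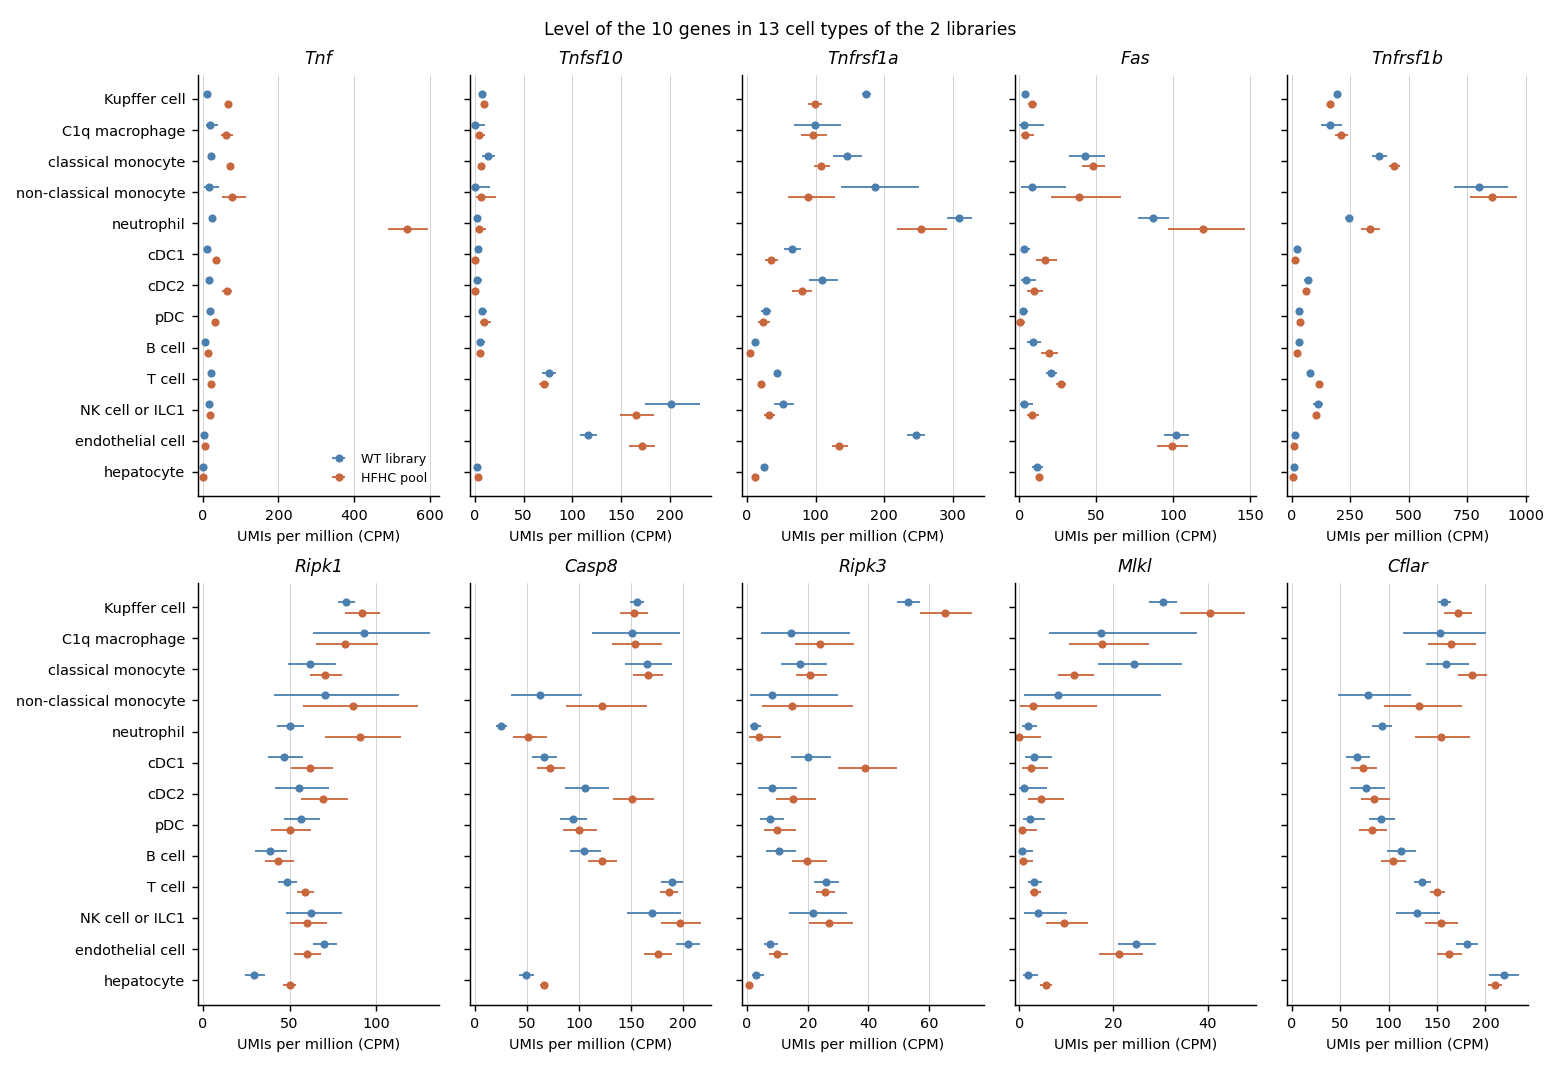
Level of each of the 10 genes (x axis, CPM, a separate linear scale for each gene) in 13 cell types (y axis) of the WT library (blue) and the HFHC pool (orange). Points are levels of summed UMIs and bars exact Poisson 95% intervals. Ripk3 and Mlkl were highest in KCs in both libraries, Cflar in hepatocytes and Tnfrsf1b in non-classical monocytes, and Tnf in neutrophils of the HFHC pool reached 541 CPM.

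On the mouse genome (GRCm38, GENCODE M21) the genes lie apart except for one pair. Cflar (chr1:58711508-58758884) and Casp8 (chr1:58795374-58847503) stand on the same strand of chromosome 1, 36489 bases apart with 0 protein-coding genes between them. Tnf lies at chr17:35199381-35202007, Tnfsf10 at chr3:27317028-27342427, Tnfrsf1a at chr6:125349362-125362484, Fas at chr19:34290666-34327772, Tnfrsf1b at chr4:145213463-145246870, Ripk1 at chr13:34002363-34037147, Ripk3 at chr14:55784995-55788865 and Mlkl at chr8:111311797-111338177. Ripk1 overlaps the opposite-strand gene Serpinb6a over 432 bases, the opposite-strand pseudogene Gm17083 over 1366 and the same-strand pseudogene Gm17084 over 511. Casp8 overlaps the same-strand Gm37760 over 3841 bases, Fas the same-strand Gm27818 over 159 and Mlkl the opposite-strand pseudogene Gm45712 over 394. Whether the counting used strand is not given in the sources used here, so reads from any of these stretches could be shared, and those on the same strand in either case.

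The 250 bases upstream of the RefSeq start (GRCm38.p6), 5′ to 3′ on the gene's own strand, are shown for the 4 genes on which the results turn: Tnf and Tnfrsf1a, the members that differed most between libraries, and Ripk3 and Mlkl, which were highest in the same cell type. Capitals mark a match to one of 5 motifs searched on both strands, namely the TATA box with the letters TATAAA, the AP-1-like motif spelled as TGANTCA, the GAS-like motif spelled as TTCNNNGAA, and the NF-kB-like and ISRE-like consensus.
Tnf, chr17:35202008-35202257, minus strand: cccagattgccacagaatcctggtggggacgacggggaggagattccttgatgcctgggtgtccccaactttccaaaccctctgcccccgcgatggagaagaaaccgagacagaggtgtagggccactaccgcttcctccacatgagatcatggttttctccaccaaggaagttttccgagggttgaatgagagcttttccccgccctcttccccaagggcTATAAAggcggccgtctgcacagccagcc
Tnfrsf1a, chr6:125349473-125349722, plus strand: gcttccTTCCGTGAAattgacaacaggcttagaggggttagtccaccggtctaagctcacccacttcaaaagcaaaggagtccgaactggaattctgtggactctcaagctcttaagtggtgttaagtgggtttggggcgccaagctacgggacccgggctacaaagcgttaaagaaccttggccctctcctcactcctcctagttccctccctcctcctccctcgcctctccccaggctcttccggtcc
Ripk3, chr14:55788858-55789107, minus strand: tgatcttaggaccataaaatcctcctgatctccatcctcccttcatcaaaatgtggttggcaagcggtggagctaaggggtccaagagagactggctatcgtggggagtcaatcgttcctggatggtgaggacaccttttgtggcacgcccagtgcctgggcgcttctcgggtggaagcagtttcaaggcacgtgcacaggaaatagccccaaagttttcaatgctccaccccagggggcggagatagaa
Mlkl, chr8:111338206-111338455, minus strand: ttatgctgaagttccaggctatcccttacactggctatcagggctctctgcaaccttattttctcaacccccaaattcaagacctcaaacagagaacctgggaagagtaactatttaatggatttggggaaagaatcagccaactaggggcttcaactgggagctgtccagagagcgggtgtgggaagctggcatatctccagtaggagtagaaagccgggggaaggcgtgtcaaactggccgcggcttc
The Tnf window held a TATA box 29 bases before the start, a motif found in 12.4% of 32851 such windows. The Tnfrsf1a window held a GAS-like match 244 bases before the start, and 7.02% of windows held such a match. By the GENCODE coordinates given above, the whole Tnfrsf1a window lies inside the gene, so GENCODE and RefSeq place its start differently. The Ripk3 and Mlkl windows held none of the 5, nor did those of Casp8 and Tnfsf10. Among the other members, Cflar had TATAAA, Fas an AP-1-like and a GAS-like match, Tnfrsf1b a GAS-like and an ISRE-like match, and Ripk1, the one gene with a pair of starts, GAS-like matches at its downstream start. These matches describe letters in a window and not bound sites.

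Tnf, the ligand, was the member that differed most between the libraries. In KCs its level was 12.5 CPM [10.7, 14.5] in the WT library and 68.1 CPM [59.7, 77.4] in the HFHC pool, from 172 and 235 UMIs. In neutrophils it was 25.8 CPM [20.7, 31.8] and 541 CPM [490, 595]. In classical monocytes it was 22.1 CPM and 73.0 CPM. Intervals did not overlap between the libraries in any of these types. In the WT library the highest types overlapped with one another, while in the HFHC pool neutrophils stood apart from the other 12. T cells, in contrast, had 21.2 CPM and 23.05 CPM, with overlapping intervals, and hepatocytes were lowest with 4 and 25 UMIs (1.11 and 1.72 CPM).

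A library ratio is the log2 of the CPM in the HFHC pool over that in the WT library with 1 UMI added to each, formed where the summed UMIs of a gene over both libraries reached 100. A ratio past 2-fold is counted as a description. Tnf had enough UMIs in 5 types and was past 2-fold higher in 4 of them: neutrophils (log2 4.38 [4.06, 4.74]), KCs (2.44 [2.16, 2.74]), type 2 conventional dendritic cells (cDC2s, 1.76 [1.07, 2.67]) and classical monocytes (1.68 [1.16, 2.33]). Of all genes formed in the same type, 8.79%, 3.60%, 3.56% and 3.57% were past 2-fold higher. The fifth type, T cells, had a ratio of 0.12 [-0.19, 0.44]. Below 100 UMIs, C1q macrophages had 7 and 67 Tnf UMIs (20.3 and 62.2 CPM) and non-classical monocytes 4 and 26 (16.6 and 77.5 CPM). Also below it, type 1 conventional dendritic cells (1.43) and B cells (1.34) were past 2-fold higher. Plasmacytoid dendritic cells (0.82), endothelial cells (0.92), hepatocytes (0.37) and NK cells or ILC1s (0.18) were not. The minimum counts both libraries together, so a type could reach it through the library where Tnf was high. Tnf was higher in the HFHC pool in all 13 types and its interval lay above 0 in 10. Of 2898 genes counted in the 5 types with enough Tnf UMIs, 21.4% were also higher in every one of those 5. That share counts direction alone, and none was computed over all 13 types.

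Few cells carried most of the Tnf. In the HFHC pool, 69 of 384 KCs (17.97%) and 83 of 339 neutrophils (24.5%) held a Tnf UMI, against 100 of 2763 (3.62%) and 73 of 3145 (2.32%) in the WT library. With each cell thinned to 2000 UMIs, which evens out the depth (2192 of 2763 and 329 of 384 KCs and 94 and 207 neutrophils were deep enough), the shares were 2.14% and 8.21% of KCs and 3.19% and 29.95% of neutrophils. Hepatocytes, which are not expected to make TNF, had a Tnf UMI in 0 of 285 cells (exact binomial upper bound 1.29%) and in 0.23% of 2169 when thinned, the background against which these shares are read. Median depth before thinning was 713.5 and 1211 UMIs in hepatocytes. Among KCs of the HFHC pool that passed the filters, the tenth with the most Tnf, 39 cells, held 87.2% of the Tnf UMIs, and the highest cell had 31. Among the Tnf UMIs of cells that passed the filters, KCs held 27.9% of 616 in the WT library, and neutrophils held 25.8% and KCs 14.3% of 1646 in the HFHC pool. The order in the HFHC pool rests on the limit of 4000 genes: without it KCs held 36.2% and neutrophils 16.9% of 2497, while in the WT library KCs held 27.5% of 639. With the limit, KCs held 13763228 of the 49509045 UMIs of all genes in the WT library. Their 27.9% of Tnf there was thus close to their share of all UMIs, and by Tnf level they had rank 10 of 13 types. In the HFHC pool KCs held 3452241 and neutrophils 786175 of 52044785 UMIs of all genes.

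Within KCs below the limit of 4000 genes the Tnf lay mainly in one cluster in both libraries. In the HFHC pool these KCs held 235 Tnf UMIs. The 499 KCs above the limit, described below, held 676 and are in none of these clusters. A KC cluster led by Spic and Mmp13 (657 and 107 cells) had 40.5 CPM [33.5, 48.4] and 159 CPM [137, 184]. The largest KC cluster, led by Folr2, Vsig4 and Clec4f and including the resident KC gene Timd4 (1346 and 187 cells), had 4.68 CPM [3.38, 6.33] and 20.01 CPM [14.2, 27.4]. A cluster led by Marco (667 and 67 cells) had 4 and 0 UMIs. The Timd4 and Spic clusters were each higher in the HFHC pool, with intervals that did not overlap between libraries. Leaving out the Spic cluster, chosen after the data were seen, brought Tnf in KCs from 12.5 to 4.98 CPM in the WT library and from 68.1 to 21.9 CPM in the HFHC pool, with a ratio of 2.14.
In neutrophils a cluster led by Acod1 and Cxcl2 (409 and 86 cells) had 20.7 CPM and 1136 CPM, and the larger cluster (2736 and 253 cells) 26.7 CPM and 253 CPM. Tnf was among the 10 leading genes of the Acod1 cluster, and Scrublet called 42.8% of its cells doublets, so its values describe a cluster partly defined by Tnf. Without that cluster the ratio in neutrophils was 3.23, and with doublets left out it was 4.40. In classical monocytes the cluster led by Ly6i and Retnla (145 and 281 cells), had 31.6 and 86.3 CPM, and the cluster led by F13a1 and Chil3 (190 and 231 cells) 12.4 and 54.3 CPM.

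**Figure D2:**
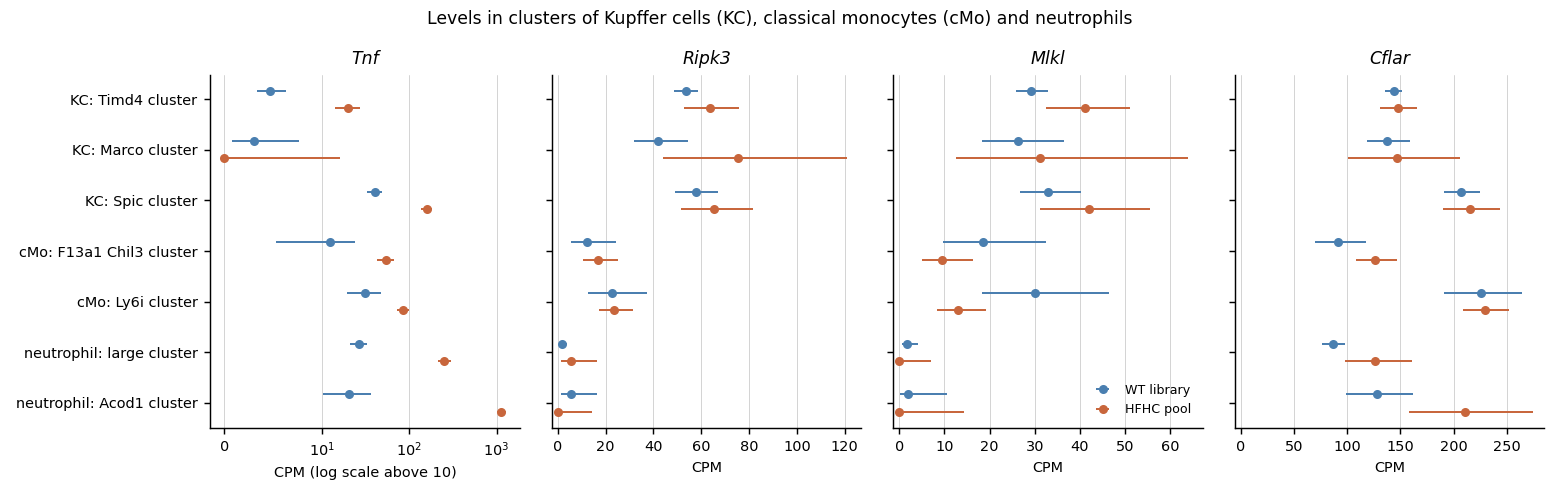
Level (x axis, CPM, logarithmic above 10 for Tnf and linear for the other genes) of Tnf, Ripk3, Mlkl and Cflar in clusters of Kupffer cells, classical monocytes and neutrophils (y axis) in the WT library (blue) and the HFHC pool (orange), with exact Poisson 95% intervals. Tnf separated the Spic cluster (40.5 and 159 CPM) from the Timd4 cluster (4.68 and 20.01 CPM) of KCs, whereas Ripk3 and Mlkl had overlapping intervals in those clusters.

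Genes known to be induced while tissue is dissociated were also higher by their summed level in the HFHC pool in 12 of the 13 types, among them types where Tnf was past 2-fold higher and types where it was not. The summed level of 15 such genes (Fos, Egr1, Atf3 and others) in KCs was 4921 and 10750 CPM. In KCs 10 of 15 were past 2-fold higher, against 3.60% of all genes, with a median log2 ratio of 1.48 against -0.02 for all genes. In classical monocytes 14 of 15 were past 2-fold higher and in neutrophils 7 of 13, against 3.57% and 8.79% of all genes. In T cells it was 11 of 14 with a median of 2.17 and in NK cells or ILC1s 11 of 13 with a median of 2.37, beside Tnf ratios of 0.12 and 0.18 (the latter from 17 and 42 UMIs). Of all genes, 8.93% in T cells and 6.09% in NK cells or ILC1s were past 2-fold in either direction. Hepatocytes were the exception, with summed levels of 1276 and 1228 CPM, 7 of 14 past 2-fold higher and 1 lower. Of the targets of NF-kB, 10 of 11 were past 2-fold higher in neutrophils, with a median of 2.23. In KCs 4 of 11 were past 2-fold higher and 1 lower, with a median of 0.27, and in T cells likewise 4 higher and 1 lower, with a median of 0.42. Interferon-stimulated genes did not move alike: in KCs 0 of 12 were past 2-fold, with a median of -0.42, and in neutrophils 5 of 8 were past 2-fold higher. Hepatocyte markers summed to 798 and 447 CPM in KCs and to 1651 and 3107 CPM in neutrophils. The part of any of these in the Tnf result was not tested.

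Tnfsf10, which encodes TRAIL, was highest in 3 types. NK cells or ILC1s had 201 CPM [174, 231] and 165 CPM [149, 184], endothelial cells 116 CPM [107, 125] and 171 CPM [158, 184], and T cells 75.9 and 71.1 CPM. Every other type of the 13 was at 12.97 CPM or below in both libraries, KCs included with 7.48 and 9.27 CPM. Among classes under 50 cells in a library, stellate cells or fibroblasts of the WT library had 35.4 CPM from 8 UMIs and plasma cells of the HFHC pool 22.0 CPM from 15. In the WT library the 3 types stood apart from one another in the order NK cells or ILC1s, endothelial cells, T cells, while in the HFHC pool the first and second overlapped. Within the NK class, one cluster (381 and 257 cells) had 285 and 288 CPM and another (179 and 284 cells) 12.9 and 26.1 CPM, so the class average depends on their mix. The library ratio was 0.56 [0.41, 0.72] in endothelial cells and -0.29 [-0.54, -0.03] in NK cells or ILC1s.

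Of the receptors, Tnfrsf1a, the TNF receptor with a death domain, was lower in the HFHC pool. Its level was 174 CPM [167, 181] and 98.5 CPM [88.3, 110] in KCs, 246 and 134 CPM in endothelial cells, 43.7 and 20.03 CPM in T cells and 24.5 and 11.9 CPM in hepatocytes. Neutrophils were highest in both libraries, with 309 and 253 CPM, apart from every other type. In the HFHC pool the KC level (98.5 CPM) was close to that of C1q macrophages (96.5 CPM) and classical monocytes (108 CPM), while in the WT library it was above that of C1q macrophages (98.4 CPM).
The ratio was below 0 in all 10 types with enough UMIs, with a median of -0.76. It was past 2-fold lower in T cells (-1.12 [-1.40, -0.86]) and hepatocytes (-1.05 [-1.42, -0.66]), where 3.22% and 8.02% of all genes were. The cluster mix of both classes differed between libraries. T cells of the cluster led by Tcrg-C2 and Cxcr6 numbered 1780 and 581, of that led by Foxp3 and Tcf7 721 and 1597. Hepatocytes of the cluster led by Mup20 numbered 2840 and 787, of that led by Thrsp 101 and 3087. The part of this mix in the ratios of both classes was not tested. The Tnfrsf1a ratio was -0.82 [-0.99, -0.66] in KCs, -0.87 in endothelial cells, -0.91 [-1.40, -0.46] in cDC1s, -0.42 in classical monocytes, -0.28 in neutrophils and -0.06 [-0.60, 0.58] in C1q macrophages. Hepatocyte markers summed to 1747 and 7237 CPM in endothelial cells, and their part in the endothelial ratio was not tested. Of 1756 genes counted in the same 10 types, 12.4% were lower in each of them. The KC value kept its direction under all 10 alternatives, between -0.83 and -0.62, whereas that of C1q macrophages changed sign in 2 of 9.

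**Figure D3:**
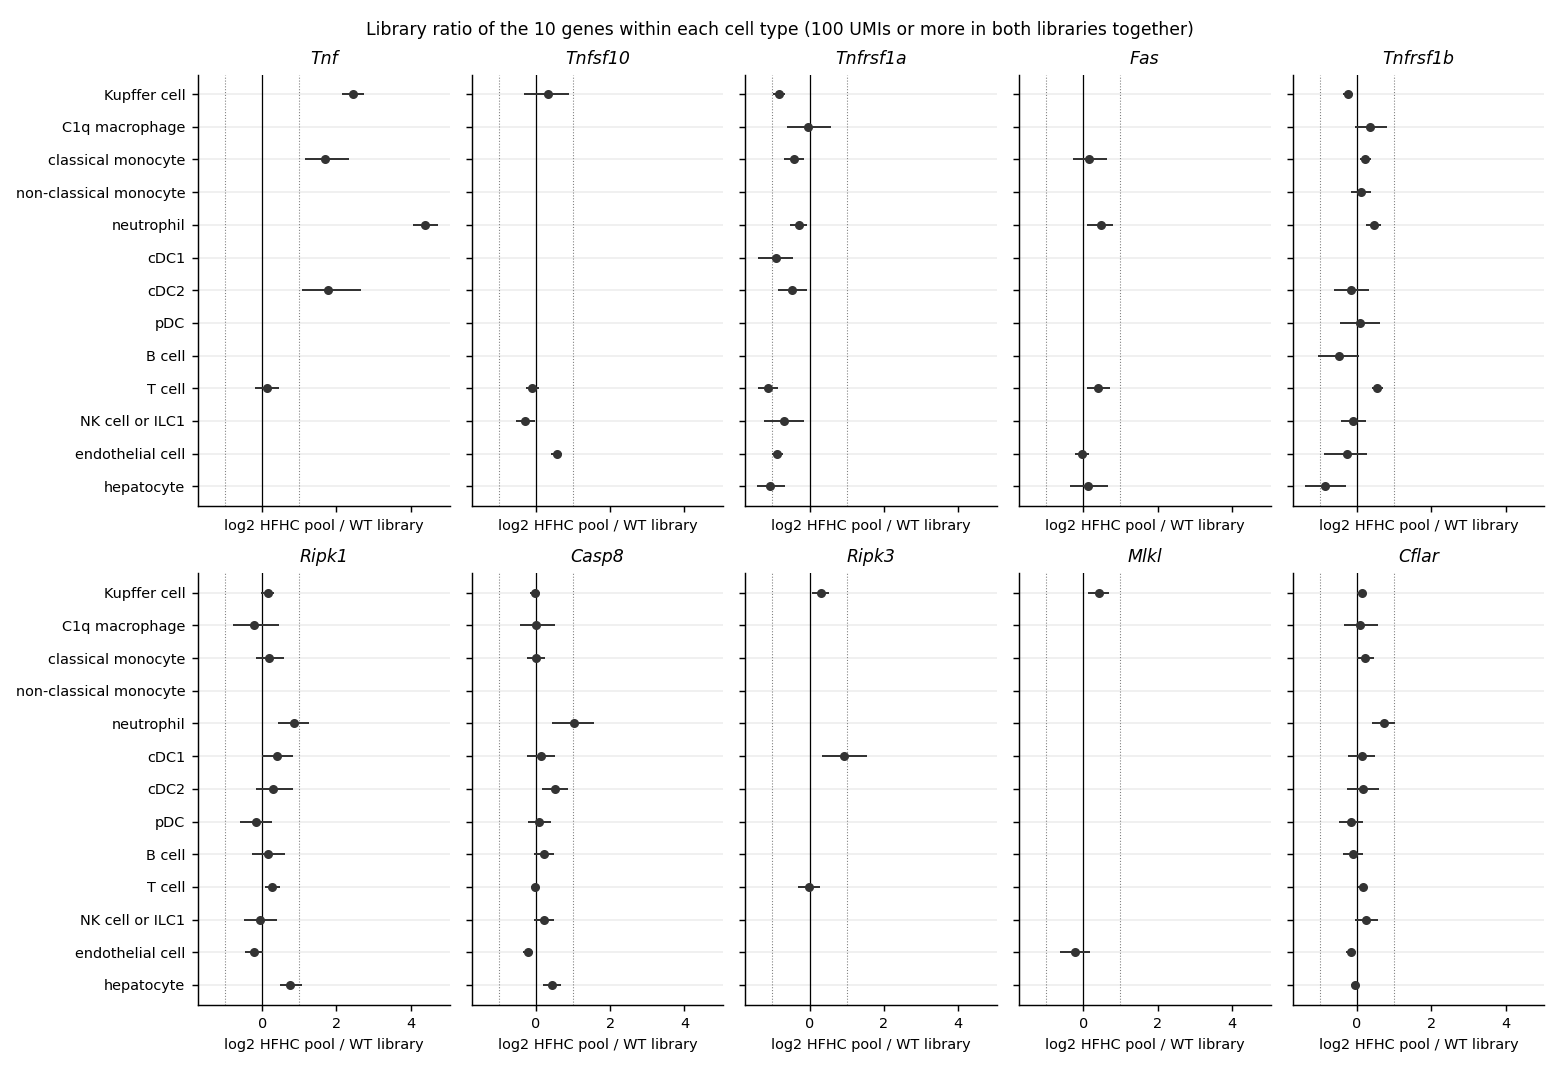
Library ratio (x axis, log2 of the level in the HFHC pool over that in the WT library) of each gene in each cell type (y axis) where its UMIs over both libraries reached 100. Points are ratios, bars exact 95% counting intervals, dotted lines 2-fold. Tnf lies right of the upper 2-fold line in 4 of 5 types and Tnfrsf1a left of 0 in 10 of 10, while Casp8, Ripk1 and Cflar lie near 0 in most types.

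Fas, the other death-domain receptor, was highest among the 13 types in endothelial cells (102 and 99.0 CPM), neutrophils (87.0 and 120 CPM) and classical monocytes (42.7 and 47.8 CPM). KCs were low, with 3.996 CPM [3.01, 5.20] and 8.11 CPM [5.39, 11.7], and C1q macrophages had 1 and 4 UMIs. Hepatocytes had 11.4 and 12.6 CPM. Of the classes under 50 cells in both libraries, stellate cells or fibroblasts had 44.2 and 72.2 CPM from 10 and 5 UMIs, and mature dendritic cells 43.5 and 46.8 CPM from 6 and 10. The ratio was 0.47 [0.11, 0.80] in neutrophils and 0.40 [0.09, 0.72] in T cells, and none of the 5 types with enough UMIs was past 2-fold. Among types with fewer, cDC1s had 6 and 28 UMIs, a ratio of 2.21 [1.09, 3.95], and KCs 55 and 28, a ratio of 1.05 [0.31, 1.70].

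Tnfrsf1b, the receptor without a death domain, was highest in monocytes and neutrophils. Non-classical monocytes stood apart with 802 CPM [693, 923] and 858 CPM [762, 963], followed in both libraries by classical monocytes (375 and 438 CPM) and neutrophils (246 and 335 CPM). KCs had 195 and 166 CPM and C1q macrophages 165 and 212 CPM. Conventional dendritic cells were lower, with 70.1 and 63.1 CPM in cDC2s and 24.5 and 16.1 CPM in cDC1s, beside 79.1 and 116 CPM in T cells. The order of the first 3 types was the same in both libraries and each stood apart from the next. Ratios ran from 0.55 [0.40, 0.70] in T cells to -0.87 [-1.39, -0.29] in hepatocytes, and the KC ratio was -0.24 [-0.37, -0.11]. The cluster mix of T cells and hepatocytes differed between libraries, as given above.

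Ripk1, the kinase on which survival and death signals meet, was found in every type. Its levels lay between 29.5 and 92.6 CPM in the WT library and between 43.6 and 91.5 CPM in the HFHC pool. KCs had 82.6 CPM [77.9, 87.6] and 91.5 CPM [81.7, 102]. Among types with enough UMIs the largest ratio was in neutrophils, 0.86 [0.43, 1.26], with 50.1 and 90.3 CPM. The lowest type was hepatocytes in the WT library (29.5 CPM) and B cells in the HFHC pool. Hepatocytes, whose cluster mix differed between libraries, had the larger level in the HFHC pool, 50.04 CPM, a ratio of 0.75 [0.47, 1.07].

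Casp8, the initiator caspase that starts apoptosis and holds necroptosis back, had 156 and 152 CPM in KCs, 150.5 and 154 CPM in C1q macrophages and 166 and 166 CPM in classical monocytes. The 3 myeloid classes overlapped with one another in both libraries, and the ratio in KCs was -0.03 [-0.17, 0.11]. Endothelial cells, T cells and NK cells or ILC1s were highest, between 171 and 204 CPM. Neutrophils were lowest with 25.2 CPM [20.1, 31.1] and 50.9 CPM [36.4, 69.3], a ratio of 1.03 [0.44, 1.57] that was past 2-fold in the main analysis and in 4 of 8 alternatives, and 0.25 with cells named from their own markers.

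Ripk3, the kinase that commits a cell to necroptosis, was highest in KCs. KCs had 53.1 CPM [49.3, 57.1] and 65.2 CPM [56.9, 74.3], from 731 and 225 UMIs. The next type was T cells in the WT library (25.9 CPM) and type 1 conventional dendritic cells (cDC1s) in the HFHC pool (38.8 CPM [29.9, 49.4]), and KCs stood apart from both. KCs held 57.2% of the 1277 Ripk3 UMIs of the WT library and 25.4% of the 886 of the HFHC pool. With no upper limit on genes the shares were 57.5% of 1322 and 50.8% of 1827, so most of the gap between the libraries rests on that limit. C1q macrophages had 14.5 CPM [4.70, 33.8] and 24.1 CPM [15.8, 35.3] and classical monocytes 17.5 and 20.7 CPM, so that both classes were below KCs with intervals apart. Hepatocytes and neutrophils were near 0, with 11 and 11 UMIs (3.06 and 0.758 CPM) and with 8 and 3 UMIs (2.34 and 3.82 CPM). At 2000 UMIs per cell, 9.40% and 11.2% of KCs held a Ripk3 UMI, against 1.05% and 0.138% of hepatocytes. The ratio was 0.30 [0.07, 0.51] in KCs, 0.92 [0.34, 1.56] in cDC1s and -0.02 in T cells, none past 2-fold.

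Mlkl, the executor of necroptosis, was highest in KCs too among the 13 types. KCs had 30.4 CPM [27.6, 33.5] and 40.6 CPM [34.1, 47.9]. Endothelial cells came next with 24.7 CPM [20.9, 29.0] and 21.2 CPM [16.9, 26.3], overlapping with KCs in the WT library and apart from them in the HFHC pool. Classical monocytes had 24.4 CPM [16.7, 34.5] and 11.6 CPM [8.18, 15.9]. C1q macrophages had 17.4 and 17.6 CPM, from 6 and 19 UMIs. In the WT library the KC interval overlapped with those of 4 types: endothelial cells, both monocyte classes and C1q macrophages. In the HFHC pool it overlapped with no other of the 13. Lymphocytes and dendritic cells had little in either library, at most 9.42 CPM. Hepatocytes had 7 and 82 UMIs (1.95 and 5.65 CPM), and neutrophils of the HFHC pool had 0 UMIs, which at a limit of 3 counts allows a level of up to 3.82 CPM (exact Poisson upper bound 4.69 CPM). Stellate cells or fibroblasts, a class under 50 cells in both libraries, had 6 and 4 UMIs (26.5 CPM [9.74, 57.8] and 57.8 CPM [15.8, 148]), intervals that include the KC levels. The ratio in KCs was 0.42 [0.13, 0.69]. In classical monocytes it was -1.08 [-1.80, -0.35], from 32 and 38 UMIs, fewer than the minimum.
Between the Timd4 and Spic clusters of KCs neither driver stood apart: in the Timd4 cluster Ripk3 was at 53.4 and 63.6 CPM and in the Spic cluster at 57.6 and 65.3 CPM, with Mlkl at 29.2 and 41.1 CPM and at 32.9 and 42.1 CPM. The clusters that differed in Tnf thus had overlapping levels of both drivers. A small cluster of cycling KCs (44 and 12 cells, led by Ube2c and Cdk1) had more Mlkl in the WT library, 68.7 CPM [40.7, 109], and 35.4 CPM in the HFHC pool from 2 UMIs. In thinned KCs, 14 of 2192 and 4 of 329 cells held a UMI of both genes, against 11.5 and 2.47 from the product of their shares.

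Cflar, the restrainer, was highest in hepatocytes, with 219 CPM [204, 235] and 210 CPM [202, 218], apart from the other 12 types in both libraries. KCs had 157 CPM [151, 164] and 171 CPM [158, 186], C1q macrophages 153 and 164 CPM and classical monocytes 159 and 187 CPM. cDC1s were lowest, with 67.6 and 74.0 CPM. Among classes under 50 cells in a library, mature dendritic cells had 493 CPM [383, 625] and 402 CPM [322, 497] from 31 and 35 cells, above hepatocytes. The ratio in KCs was 0.12 [-0.01, 0.25] and the widest was 0.74 [0.42, 1.04], in neutrophils, from 92.8 to 154 CPM. Cflar, unlike Ripk3 and Mlkl, stood apart between the Timd4 and Spic clusters: the Spic cluster of KCs had 207 CPM [191, 225] and 216 CPM [190, 244] against 144 CPM [136, 152] and 148 CPM [131, 166] in the Timd4 cluster, and the Ly6i cluster of monocytes had 226 and 229 CPM against 91.4 and 126 CPM in the F13a1 cluster. In KCs the cluster with more Tnf thus also had more Cflar, with intervals apart in both libraries.

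Drivers were set against the restrainer as the UMIs of Ripk3 and Mlkl together per 100 UMIs of Cflar, a number that has meaning only between cell types. KCs had 53.1 [49.4, 57.1] and 61.8 [54.1, 70.5], the highest of the 13 types in both libraries. cDC1s followed with 34.7 [24.0, 49.2] and 55.7 [40.8, 75.3], nearly all of it Ripk3 (29.9 and 52.4 per 100), so that KCs stood apart from cDC1s in the WT library only. The cDC1 class includes a cluster of cycling cells (74 and 31 cells, led by Ube2c and Top2a). Its marker score was 2.43 for cDC1s and 2.06 for cDC2s. C1q macrophages had 20.8 and 25.4 and classical monocytes 26.3 and 17.3. The KC interval was apart from both of these classes in both libraries.
Hepatocytes had 2.29 [1.35, 3.64] and 3.05 [2.46, 3.75] and neutrophils 4.42 and 2.48, the lowest of the 13 types. Stellate cells or fibroblasts, outside the 13 types, had 28.0 [10.2, 66.6] and 83.3 [20.1, 328] from 41 and 11 cells. T cells and endothelial cells lay between, with 21.6 and 19.2, and 17.9 and 19.2. These sums differed in make-up: in T cells most was Ripk3 (19.2 and 17.1 per 100) and in endothelial cells Mlkl (13.7 and 13.1 per 100). In hepatocytes Ripk3 was at 1.40 and 0.361 and Mlkl at 0.89 and 2.69 per 100. In the HFHC pool cDC1s were above KCs when cells were thinned to 2000 UMIs (75.0 against 57.8) and level with them when mixed clusters were counted in their nearest type (55.7 against 55.6), an alternative chosen after the data were seen. The rank of KCs in the WT library, and for Ripk3 and Mlkl each in both libraries, was 1 under every alternative in which it was computed.

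**Figure D4:**
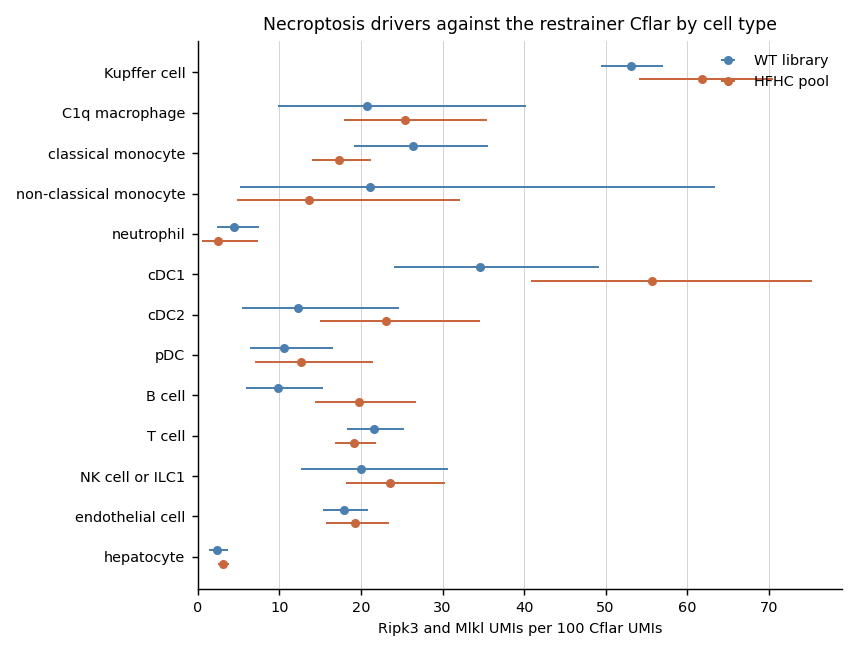
UMIs of Ripk3 and Mlkl per 100 UMIs of Cflar (x axis) in 13 cell types (y axis) of the WT library (blue) and the HFHC pool (orange), with exact 95% counting intervals. KCs (53.1 and 61.8) are at the top of the scale, cDC1s of the HFHC pool (55.7) overlap with them, and hepatocytes (2.29 and 3.05) and neutrophils (4.42 and 2.48) are at the bottom.

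KCs above 4000 genes were left out of the values above and were more numerous in the HFHC pool. Clustered without the upper limit, 30 KCs of the WT library and 499 of the HFHC pool exceeded it. Those 499 cells had 56.2 CPM of Tnf (676 UMIs, against 235 in the KCs below the limit), 101 CPM of Tnfrsf1a, 59.2 CPM of Ripk3, 42.5 CPM of Mlkl and 162 CPM of Cflar. Their intervals overlapped with those of the KCs below the limit in the same pool for each of these 5 genes.

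Over all members and types, 77 of 130 pairs had enough UMIs for a ratio, and 5 were past 2-fold higher and 2 lower in the HFHC pool. Among all genes the share past 2-fold in either direction ran from 4.73% in plasmacytoid dendritic cells to 14.8% in hepatocytes. In KCs 1 of 9 members was past 2-fold, against 7.39% of 8929 genes, with a median of 0.15 over the 9 and -0.02 over all genes. In C1q macrophages it was 0 of 5 against 8.88%, in classical monocytes 1 of 7 against 6.11%, in non-classical monocytes 0 of 1 against 6.86%, in neutrophils 2 of 7 against 13.4%, in cDC1s 0 of 5 against 5.66%, in cDC2s 1 of 6 against 5.87%, in plasmacytoid dendritic cells 0 of 4 against 4.73%, in B cells 0 of 4 against 6.11%, in NK cells or ILC1s 0 of 6 against 6.09%, in endothelial cells 0 of 8 against 14.4%, in T cells 1 of 9 against 8.93% and in hepatocytes 1 of 6 against 14.8%. Apart from Tnf in 4 types, Tnfrsf1a in T cells and hepatocytes and Casp8 in neutrophils, the 77 pairs stayed within 2-fold. Pairs with fewer UMIs are not covered by that statement, and some were past 2-fold, such as Tnf in C1q macrophages and non-classical monocytes, Fas in cDC1s and Mlkl in classical monocytes. In the HFHC pool, Tnf in non-classical monocytes (77.5 CPM) was as low as 27.4 CPM under an alternative, and Fas in cDC1s (16.7 CPM) as low as 5.84 CPM. There 1 cell held 10 of the 26 Tnf UMIs and 1 cell 8 of the 28 Fas UMIs.

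The other genes of the pathway were described from a list of 53. In KCs 43 had enough UMIs, of which 2 were past 2-fold higher and 1 lower, with a median of -0.02, the same as over all genes. Of all genes in KCs, 7.39% were past 2-fold in either direction. The 3 highest were Tnfaip3 (A20, a ubiquitin-editing brake on TNFR1 signalling that is also in the list of NF-kB targets; 37.2 and 105 CPM, log2 1.5), Ltbr (the lymphotoxin beta receptor; 27.0 and 58.2 CPM, 1.11) and Tlr3 (a sensor of double-stranded RNA; 17.3 and 29.3 CPM, 0.77). The 3 lowest were Rnf31 (HOIP, the catalytic subunit of the linear ubiquitin ligase; 38.6 and 18.8 CPM, -1.02), Spata2, which links the deubiquitinase CYLD to it (21.0 and 10.4 CPM, -0.98) and the effector caspase Casp6 (22.4 and 13.04 CPM, -0.75). By role, 6 of the 7 executors of apoptosis were lower in KCs of the HFHC pool, Bak1 among them (140 and 91.8 CPM) and Bax (137 and 104 CPM), and Bid alone was higher (7.05 and 11.6 CPM). None of the 7 passed 2-fold and their median was -0.39. Of all 8929 genes counted in KCs, 47.91% were higher. The executor median was below 0 in each of the 13 types except non-classical monocytes (0.11, from 1 gene). It was -0.41 in endothelial cells, -0.38 in C1q macrophages and -0.002 in hepatocytes, so the direction was not particular to KCs. Zbp1, another sensor that can engage RIPK3, had 52.2 and 53.6 CPM.

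In classical monocytes 35 genes of the list had enough UMIs and 1 was past 2-fold, Ltbr (28.2 and 59.3 CPM, 1.04). It was followed by Mapkapk2 (MK2, a kinase that restrains RIPK1; 272 and 493 CPM, 0.86) and the raft protein Flot2 (0.76), while Flot1 (-0.95), Casp6 (-0.71) and the pore-forming protein Bak1 (-0.56) were lowest. Their 6 counted executors were all lower, with a median of -0.41, while over all genes the median was 0.01 and 50.79% were higher. In C1q macrophages 15 genes were counted and Tnfaip3 (52.1 and 133 CPM, 1.28) was past 2-fold, with Tnfrsf21 (0.78) and Chmp2a (0.51) next, and Bak1 (-0.82) and the sheddase Adam17, which releases TNF and its receptors (-0.38), at the lower end. In non-classical monocytes 7 genes were counted and Mapkapk2 (158 and 465 CPM, 1.53) was past 2-fold, followed by Ikbkb (0.39) and Xiap (0.34), and Adam17 (-0.26), Tab2 (0.02) and Chmp4b (0.08) were lowest. The plot of pathway genes gives those of KCs and classical monocytes.

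**Figure D5:**
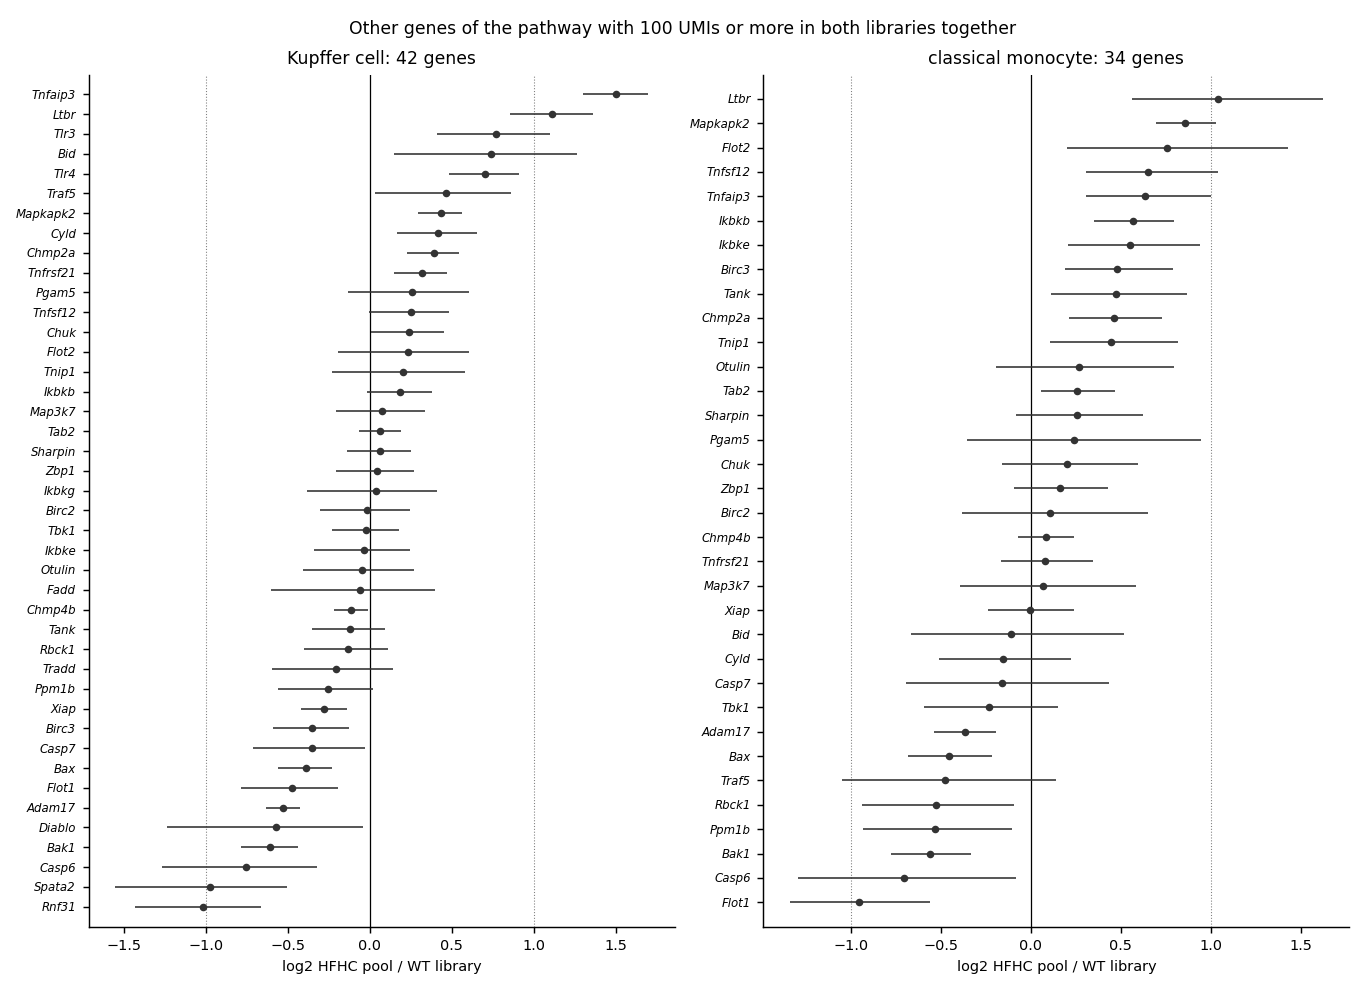
Library ratio (x axis, log2 of the level in the HFHC pool over that in the WT library) of the other pathway genes (y axis) whose UMIs over both libraries reached 100, in Kupffer cells and classical monocytes, without 1 gene of the list that is not reported here. Points are ratios, bars exact 95% counting intervals, dotted lines 2-fold. Tnfaip3 (1.5) and Rnf31 (-1.02) mark the ends in KCs, Ltbr (1.04) and Flot1 (-0.95) those in classical monocytes.

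Genes most alike to a member in their pattern over the 13 types were ranked by the lower of the Pearson r of the 2 libraries on log2 CPM, among 11591 genes. The points share their libraries and depths, so the r values are descriptions. Tnf was most like Cd44 (0.92), Arpc1b (0.91) and Myo9b (0.90), and Tnfsf10 like Fam53b, Peak1 and Socs2 (0.84 to 0.85). Tnfrsf1a was nearest to Rac1 (0.92), Akt1 (0.89) and Rsad2 (0.87), Fas to Hdc (0.83), Csf1 (0.80) and Slc25a37 (0.73), and Tnfrsf1b to Rap1b (0.89), Ptpn1 (0.87) and Itgal (0.86). Ripk1 was nearest to Lipa, Hpcal1 and Arf2 (0.80 to 0.82) and Casp8 to Nrip1, Kdsr and Fundc2 (0.84 to 0.87). Ripk3 was most like Akr1b10 (0.88), Aldh18a1 (0.88) and Ncoa7 (0.86), Mlkl like Rab5c (0.88), Ocrl (0.85) and Kdelc2 (0.85), and Cflar like Lgals8 (0.80), C1ra (0.80) and Slc7a2 (0.79).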

How the data were processed

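Both tables hold counts that the authors deposited: whole numbers of UMIs per gene and cell, corrected for sequencing errors in the UMI (RSEC). Per the file headers they were made with the BD Rhapsody WTA Analysis Pipeline version 1.10.1 on GRCm38 with GENCODE M19, and the submitters' processing notes name Seurat. Per its header the HFHC table combines a sample-tag library (HFHC-Tag) with the transcript library (HFHC-WTA), and no sample tag was used here. Cells with fewer than 200 or more than 4000 genes or over 25% mitochondrial UMIs were removed, after the study's methods. Scrublet (scanpy 1.11.5) called 8.13% of the WT library and 1.95% of the HFHC pool as doublets, which were kept except in one alternative. Libraries were joined in Seurat 5.3.0 (R 4.3.3) by SCTransform (sctransform 0.4.2) and reciprocal PCA with 4000 variable genes, 30 components and a resolution of 0.8. Clusters whose best type was a KC, C1q macrophage, monocyte, or conventional or mature dendritic cell were clustered again by the same steps. So were clusters in which a second type scored at least 2. Named clusters of neutrophils, T cells, NK cells and B cells came from the first clustering. Clusters were named from fixed markers (a mean score of at least 1 and 3 detected markers) and left unnamed where another type's genes led or over 50% of cells were called doublets. Naming thresholds were set after clusters were seen.

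UMIs were summed per type and library. Intervals are exact Poisson for levels, exact binomial (Clopper-Pearson) for shares and exact conditional for ratios, at 95%, and cover counting error only. A count of 0 allows up to 3 counts. The ratio script was tested on simulated data. Named genes were all 10 members, of the pathway list the 3 highest and 3 lowest ratios in KCs, C1q macrophages and monocytes, and for each member the 3 genes nearest in pattern. Of the pathway list, 1 gene is counted but not reported here by name. A gene named outside these rules was chosen after its values were seen. The members and lists were chosen with earlier results of these data known, so no count over them is independent support. The alternatives tried were mitochondrial UMIs held to 10%, the upper bound on genes dropped, doublets left out, types from each cell's own markers, a resolution of 1.0, scaling by the median gene ratio, thinning to 2000 UMIs, a minimum of 20 UMIs and, chosen after seeing the data, mixed clusters counted in their nearest type and the analysis without the Spic and Acod1 clusters.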

Additional observations from a re-analysis of the deposited data

Results flagged for a closer look

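The 4 members Tnfsf10, Tnfrsf1b, Casp8 and Cflar had library ratios whose counting intervals lay on opposite sides of 0 in different cell types. With 1 library per condition, none of these differences between types was tested. For Tnfsf10 the ratio was 0.56 in endothelial cells and -0.29 in NK cells or ILC1s. Within the NK class, neither cluster was lower in the HFHC pool: one (381 and 257 cells) had 285 and 288 CPM and the other (179 and 284 cells) 12.9 and 26.1 CPM. For Tnfrsf1b it was 0.55 in T cells and -0.87 in hepatocytes, classes whose cluster mix differed between the libraries. For Casp8 it was 1.03 in neutrophils and -0.22 in endothelial cells, and for Cflar 0.74 in neutrophils and -0.15 in endothelial cells. Beside these values, Scrublet called 14.6% of endothelial cells doublets in the WT library and 0 of 639 in the HFHC pool, and hepatocyte markers summed to 1747 and 7237 CPM in them. The Acod1 cluster, with 42.8% doublet calls, made up 409 of 3145 and 86 of 339 neutrophils. Hepatocyte markers summed to 1651 and 3107 CPM in neutrophils. The part of any of these in the differences was not tested.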

How the results depend on the processing

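No ratio past 2-fold changed sign under any alternative run. The count of member and type pairs past 2-fold, 7 of 77, was 3 of 44 with cells thinned to 2000 UMIs and 21 of 113 with a minimum of 20 UMIs, settings that change how many pairs are counted. The level of Tnf in KCs of the HFHC pool, 68.1 CPM, was 77.4 CPM with a mitochondrial limit of 10%, 58.9 CPM with no upper limit on genes and 21.9 CPM without the Spic cluster. Drivers per 100 Cflar UMIs in KCs of the HFHC pool, 61.8, were 70.6 without that cluster, and the pathway genes past 2-fold in KCs, 3, were then 1. The cause of these shifts was not tested. Tnf in KCs was past 2-fold under all 10 alternatives (log2 2.14 to 2.65), as it was in neutrophils (3.23 to 4.88) and classical monocytes (9 alternatives, 1.32 to 1.78). Tnfrsf1a was past 2-fold lower in T cells under all 10 and in hepatocytes under 6 of 9, and came past 2-fold in cDC1s under 3 of 9 and in endothelial cells under 1 of 10. No paired analysis was possible because each condition had 1 library. Few UMIs limit Ripk3 in several types, such as C1q macrophages (5 and 26 UMIs in 92 and 123 cells) and non-classical monocytes (2 and 5 in 101 and 75).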
